A study of Homo sapiens with 12 samples.

Results

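The genes described here repair damaged DNA or signal that damage to the cell cycle. They were taken from a list of 47 human genes by matching each symbol exactly to the annotation of the array, with the brightest probe set kept for each gene. Of these 47 genes, 42 had a probe set of their own symbol, out of 19775 genes on the array, and 41 passed the filter on dim signals, out of 12386 genes tested. BRCA2, RBBP8, FANCA and FANCD2 had no probe set of exactly that symbol and PMS2 had probe sets only in common with another gene, so these 5 are not analysed here. FANCB lay below the filter.

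Cells mend broken DNA by several routes. Homologous recombination trims the broken ends and copies the sister chromatid, which is present only after replication, while end joining seals ends without a template. The Fanconi anaemia pathway unhooks crosslinked strands at stalled forks, mismatch repair corrects copying errors, base excision repair replaces damaged bases, and the ATR and ATM kinases pass the alarm to CHEK1 and CHEK2, which hold the cell cycle. Many genes of the recombination and Fanconi routes are known to be transcribed most in cycling cells, in late G1 and S phase, through the E2F family of factors.

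The study hybridised RNA to 12 Affymetrix U133 Plus 2.0 arrays, 3 in each of 4 groups. Ls174T is a colorectal carcinoma line, and both lines used were derivatives of it. Ls174T-pTER-β-catenin, the shRNA line, was given doxycycline for 72 h to switch on a short hairpin RNA against β-catenin, the protein that carries the Wnt signal to the nucleus, or was left uninduced. Ls174T-L8, the dnTcf4 line, was given doxycycline for 24 h to switch on a dominant-negative form of Tcf4, the factor through which β-catenin acts on genes, or was left uninduced. The comparison asks which genes depend on Wnt signalling in these cells. The lines differ in construct and in time of induction, and no array came from cells that had doxycycline without either construct, so an effect of doxycycline itself cannot be told apart from that of the constructs. Whether replicate arrays stand for independent cultures is not given in the labels. The p-values therefore measure the spread between arrays, which may be technical, and the 3 arrays per group limit the precision. The arrays measured bulk RNA, so fewer cells with a transcript and less of it per cell cannot be told apart.

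The values are signals in arbitrary units on a linear scale. A change is a difference of mean log2 signals, induced minus uninduced, given with its standard error, and a gene was called when limma's adjusted p over all 12386 genes was under 0.05. The median signal of an array lay between 12.1 and 15.3, and arrays of a group correlated at 0.96 to 0.97. CTNNB1, the gene of β-catenin, changed by -4.61 on the log2 scale with the shRNA and by 0.17 with dnTcf4, and 2 probe sets of TCF7L2, the gene of Tcf4, changed by 3.53 and 2.92 with dnTcf4, while its brightest changed by 0.72 with dnTcf4 and 0.74 with the shRNA. All 11 colon epithelial markers were above the filter, and EPCAM had geometric mean signals between 4199 and 4634 in the 4 groups. FANCB, a subunit of the Fanconi anaemia core complex, was too dim to be tested, with signals of 11, 0.9 and 11.2 in the induced shRNA line, 11.5, 21.7 and 9.3 in the uninduced shRNA line, 6.7, 10.0 and 14.4 in the induced dnTcf4 line and 15.1, 15.4 and 13.1 in the uninduced dnTcf4 line.

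Most of these repair and checkpoint genes fell in each line, and none was called higher in either. With the β-catenin shRNA 25 of 41 were called lower and 16 were not called, where 34% of all genes tested were called, 17.4% lower and 16.6% higher. With dnTcf4 26 were called lower and 15 were not called, where 36% of all genes were called, 20% lower and 16% higher. The median change of the 41 genes was -0.73 with the shRNA, against 0.02 over all genes tested, and -0.52 with dnTcf4, against -0.05 over all genes. All 3 induced values lay below all 3 uninduced values for 28 genes with the shRNA, a pattern shown by 22.2% of all genes, and for 31 genes with dnTcf4, shown by 26% of all genes. WRN alone had all induced values above the uninduced ones, with the shRNA, a pattern shown by 22.4% of all genes (21.1% with dnTcf4), and it was not called.

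A set of 20 genes was called lower in both lines, where 9.68% of all genes were, and none was called higher in both, where 8.4% of all genes were. By route these were RAD54L, XRCC3, BARD1, RAD51C and RAD54B of homologous recombination, EXO1, BLM and RMI1 among the nucleases and helicases, FANCG, BRIP1, FANCI, FANCL and FANCC of the Fanconi anaemia pathway, XRCC6 of end joining, MSH6 of mismatch repair, UNG and PARP1 of base excision repair, and CLSPN, CHEK2 and MDC1 of the checkpoint. RAD51AP1, BRCA1, POLQ, PRKDC and TOPBP1 were called lower with the shRNA and were not called with dnTcf4, and XRCC2, FANCE, XRCC5, LIG3, ATR and CHEK1 were called lower with dnTcf4 and were not called with the shRNA. The 10 genes called in neither line were PALB2, MRE11, NBN, RAD50, WRN, FANCM, XRCC4, MSH3, ATM and TP53BP1. Calls with at least a 2-fold decrease numbered 14 with the shRNA, against 4.32% of all genes, and 4 with dnTcf4 (EXO1, RAD54L, MSH6 and UNG), against 2.64% of all genes.

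**Figure D1:**
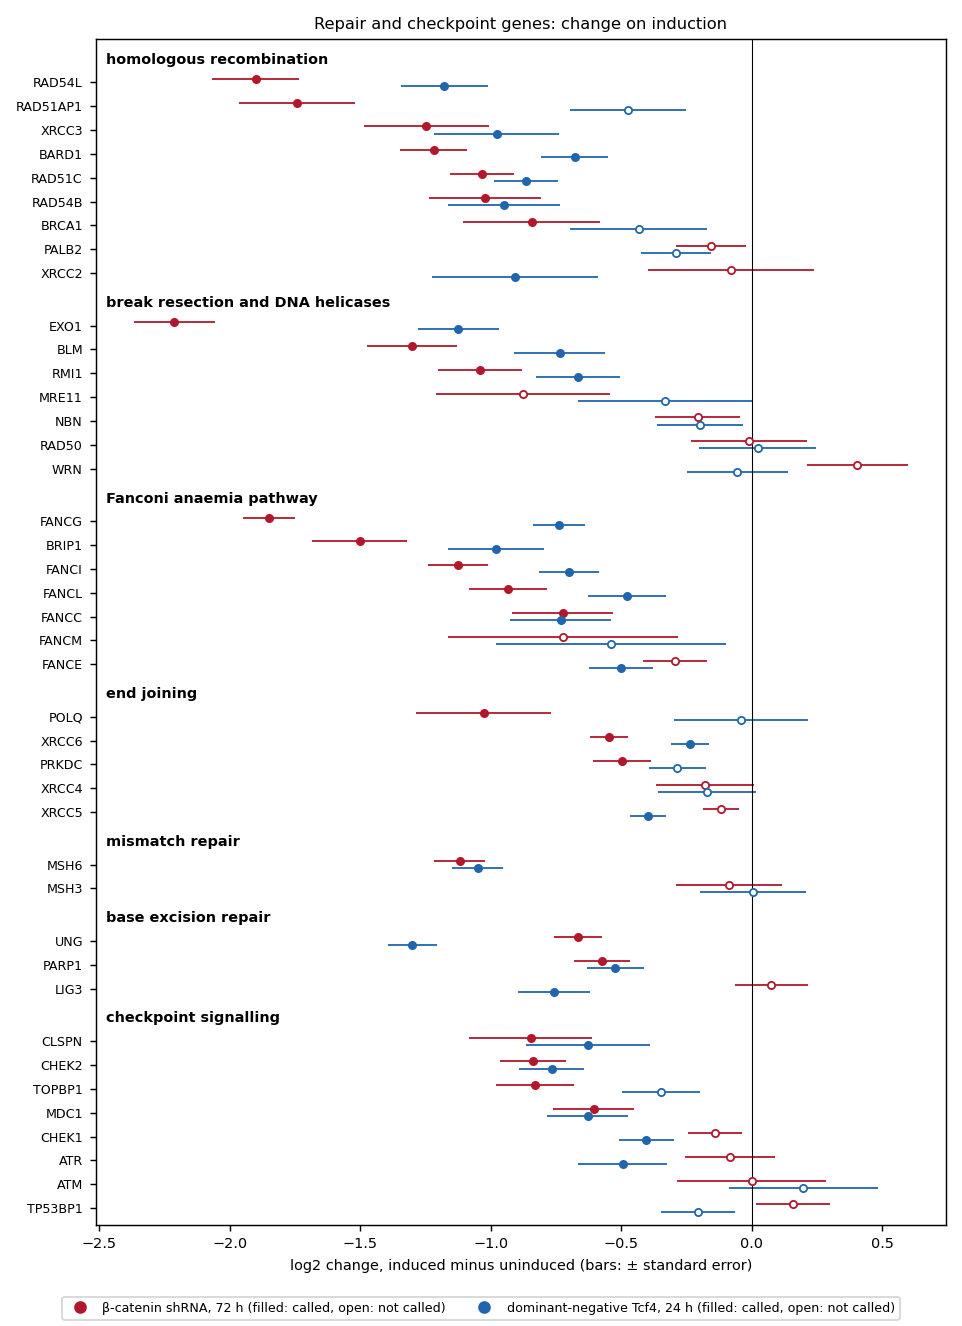
Log2 change of each of the 41 genes, grouped by route, with the β-catenin shRNA (red) and with dnTcf4 (blue). Points are changes, induced minus uninduced, bars are standard errors, and filled points were called. Filled points lie only to the left of 0, and EXO1 at -2.21 lies farthest left.

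The decreases of EXO1, RAD54L and FANCG were the largest when averaged over both lines, and the sequences around their transcription starts are shown for that reason. These are RefSeq promoters on GRCh38.p14, from 250 bases before to 50 bases after the first listed start of each gene, written along the strand of the gene. Capitals mark E2F letters (TTTGGCGC, TTTCCCGC, TTTCGCGC or TTTGGCGG) or the CCAAT box bound by NF-Y, on either strand. The EXO1 window is chr1:241847954-241848253 on the plus strand, the RAD54L window is chr1:46247438-46247737 on the plus strand, and the FANCG window is chr9:35079893-35080192 on the minus strand.
EXO1: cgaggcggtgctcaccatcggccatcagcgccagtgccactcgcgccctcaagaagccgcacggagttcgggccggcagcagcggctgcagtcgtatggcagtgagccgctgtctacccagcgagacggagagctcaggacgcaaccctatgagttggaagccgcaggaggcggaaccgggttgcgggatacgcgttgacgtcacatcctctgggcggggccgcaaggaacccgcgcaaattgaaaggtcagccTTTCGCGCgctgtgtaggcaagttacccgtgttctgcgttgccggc
RAD54L: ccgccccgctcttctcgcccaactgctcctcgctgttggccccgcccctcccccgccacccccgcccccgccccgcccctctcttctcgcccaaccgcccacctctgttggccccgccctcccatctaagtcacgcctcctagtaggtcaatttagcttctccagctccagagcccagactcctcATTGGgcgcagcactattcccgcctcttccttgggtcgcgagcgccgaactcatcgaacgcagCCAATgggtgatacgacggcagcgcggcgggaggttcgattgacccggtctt
FANCG: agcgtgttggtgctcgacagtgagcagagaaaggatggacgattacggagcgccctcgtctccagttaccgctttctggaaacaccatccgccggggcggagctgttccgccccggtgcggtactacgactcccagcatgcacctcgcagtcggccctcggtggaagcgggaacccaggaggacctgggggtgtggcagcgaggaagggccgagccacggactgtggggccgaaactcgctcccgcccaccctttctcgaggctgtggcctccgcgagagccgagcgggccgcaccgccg
EXO1 held an E2F match just after its start, RAD54L held a CCAAT on each strand, and the FANCG window held none of the letters searched. A promoter sequence was found for 36 of the 42 genes, and not for NBN, FANCI, RAD54B, PRKDC, WRN and XRCC5. E2F letters occurred in 8 of these 36 windows (22.2%), against 5.48% of the 10088 tested genes with a window and 3.43% of all 27305 windows. Among the genes called lower in both lines they occurred in 5 of 18 windows (27.8%). CCAAT occurred in 19 of 36 windows (52.8%), against 37.2% of tested genes. The cell cycle homology letters TTTGAA or TTCGAA occurred in 5 windows (13.9%), against 11.6%. TCF/LEF letters (ATCAAAG or TTCAAAG) occurred in 1 window (2.78%), that of PARP1, against 4.23% of tested genes and 6.98% of all windows. On the opposite strand TTCAAAG reads CTTTGAA and so overlaps TTTGAA. These are matches of letters, and no binding was measured.

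The 8 genes with E2F letters are shown with 10 bases on each side, or fewer at the end of a window, and the match in capitals.
EXO1: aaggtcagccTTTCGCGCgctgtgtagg
MSH6: tccccccagaTTTCCCGCcagcaggagc
FANCC, nearer the start: tcgtcggaatTTTCCCGCgacgccgcgg
FANCC, farther from the start: cggggcttccGCGCGAAAccgggaacac
CLSPN: ctctggctggGCGGGAAAgcaagaacag
XRCC6: tcgcttccctGCGCCAAA
TOPBP1: cgcgcggttgGCGCGAAAgtcggttccc
XRCC2: ggcgttggtgGCGGGAAAgttgagtctc
MSH3: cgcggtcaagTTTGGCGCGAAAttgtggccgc
EXO1, MSH6, FANCC, CLSPN and XRCC6 were called lower in both lines. TOPBP1 was called lower with the shRNA, XRCC2 with dnTcf4, and MSH3, whose match is a pair of overlapping E2F words on opposite strands, in neither line. In the shRNA line the log2 change of these 8 genes ran from -2.21 (EXO1) to -0.08 (XRCC2), and in the dnTcf4 line from -1.12 (EXO1) to 0.00 (MSH3).

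Homologous recombination held the largest share of decreases with the shRNA, where 7 of 9 genes were called lower with a median change of -1.03, and 6 of 9 were called lower with dnTcf4 with a median of -0.87. RAD54L, a motor protein that acts during strand invasion, had signals of 48.0, 56.9 and 51.3 after induction of the shRNA, against 226, 219 and 147 in the uninduced line, and 80.2, 92.6 and 81.6 after induction of dnTcf4, against 219, 178 and 181 uninduced. Neither pair of groups overlapped, and RAD54L changed by -1.90 ± 0.17 (adjusted p = 2.13e-07) with the shRNA, a 3.74-fold decrease, and by -1.18 ± 0.17 (adjusted p = 3.92e-05) with dnTcf4. RAD51AP1, which stimulates strand invasion, gave 41.0, 66.9 and 66.9 with the shRNA, against 147, 180.2 and 261 uninduced. With dnTcf4 its signals were 395, 243 and 313, against 446, 398 and 454 uninduced, so the groups came close without overlap. The change was -1.74 ± 0.22 (adjusted p = 1.28e-05) with the shRNA and -0.47 ± 0.22 (adjusted p = 0.109) with dnTcf4, and only the first was called. Without induced array 1 of the dnTcf4 line the second was called as well (adjusted p = 0.0467).

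XRCC3, which works in strand exchange and the resolution of joined strands, had signals of 21.7, 25.1 and 35.8 with the shRNA, against 59.0, 75 and 59.0 uninduced, and of 34.9, 40.4 and 57.5 with dnTcf4, against 95.6, 88.9 and 72.8 uninduced. Both pairs of groups were apart, with changes of -1.25 ± 0.24 (adjusted p = 0.000627) and -0.98 ± 0.24 (adjusted p = 0.00418). BARD1, the obligate partner of BRCA1 in its ubiquitin ligase, gave 77.0, 88.0 and 71.4 with the shRNA, against 179, 177 and 193 uninduced, and 173, 167 and 171 with dnTcf4, against 301, 232 and 289.5 uninduced. It fell in both lines, with log2 changes of -1.22 ± 0.13 (adjusted p = 1.7e-06) and -0.68 ± 0.13 (adjusted p = 0.000552). RAD51C, which forms a complex with XRCC3, changed by -1.03 ± 0.12 (adjusted p = 6.39e-06) with the shRNA and -0.87 ± 0.12 (adjusted p = 3.99e-05) with dnTcf4, and RAD54B, a relative of RAD54L, by -1.02 ± 0.22 (adjusted p = 0.00138) and -0.95 ± 0.22 (adjusted p = 0.00243).

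BRCA1 itself, which steers breaks towards resection, averaged 51.9 ± 17.4 with the shRNA and 90.0 ± 13.7 uninduced (SD, n = 3 each), and 125 ± 39.7 with dnTcf4 and 166 ± 35.9 uninduced. Its change was -0.84 ± 0.26 (adjusted p = 0.0196) with the shRNA and -0.43 ± 0.26 (adjusted p = 0.224), not called, with dnTcf4. The call with the shRNA was lost without induced array 3 (log2 change -0.54, adjusted p = 0.113) and without uninduced array 1 or 3 (adjusted p = 0.0652 and 0.0611), and a second probe set of BRCA1 changed by -0.34. XRCC2, another gene of strand exchange, changed by -0.08 ± 0.32 (adjusted p = 0.878), not called, with the shRNA and by -0.91 ± 0.32 (adjusted p = 0.0344) with dnTcf4. That call was lost when any of 5 of the 6 dnTcf4 arrays was left out (adjusted p 0.0531 to 0.148), and held without induced array 1. PALB2, which bridges BRCA1 and BRCA2, was not called in either line, with changes of -0.16 and -0.29 (adjusted p = 0.412 and 0.105).

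**Figure D2:**
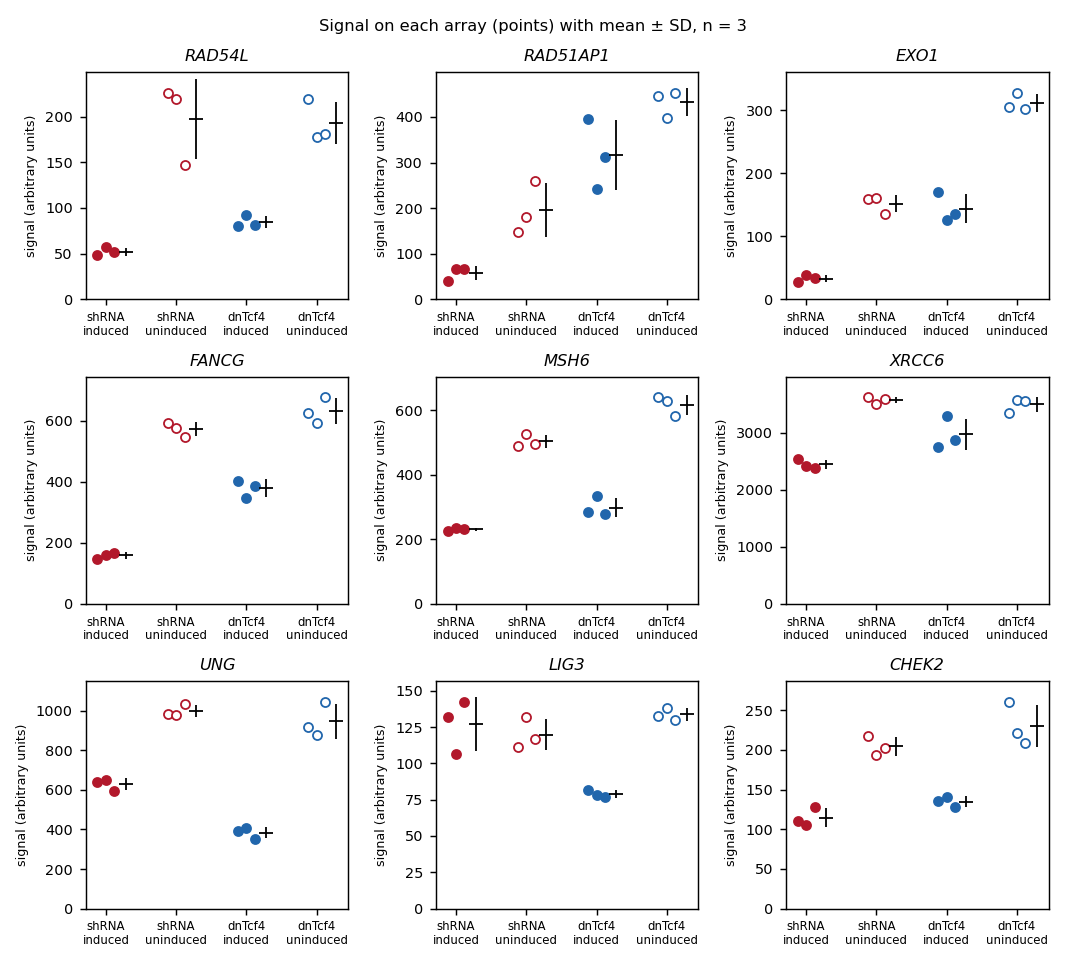
Signal in arbitrary units (vertical axis, linear, from 0) on every array for 9 of the genes, in the induced (filled) and uninduced (open) shRNA line (red) and dnTcf4 line (blue). Black marks are means ± SD of 3 arrays. Induced and uninduced points are apart in every panel and line except LIG3 in the shRNA line.

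Among the genes of break resection and the DNA helicases the response was split, with 3 of 7 called lower in each line and median changes of -0.88 with the shRNA and -0.33 with dnTcf4. EXO1, an exonuclease that resects broken ends over long distances and also excises mismatches, showed the largest decrease of all 41 genes with the shRNA. Its signals were 27.1, 37.7 and 33.8 with the shRNA, against 158, 160.0 and 136 uninduced, and 170.0, 125 and 136 with dnTcf4, against 304, 328 and 301 uninduced. It was 4.63-fold lower with the shRNA, a change of -2.21 ± 0.15 (adjusted p = 1.63e-08), and 2.18-fold lower with dnTcf4, a change of -1.12 ± 0.15 (adjusted p = 2.91e-05), with no overlap in either line. BLM, the helicase lost in Bloom syndrome, gave 24.1, 24.1 and 26.5 with the shRNA, against 60.1, 53.9 and 71.2 uninduced, and 74.8, 62.3 and 72.3 with dnTcf4, against 111, 129 and 109.6 uninduced. Its changes were -1.30 ± 0.17 (adjusted p = 2.03e-05) and -0.74 ± 0.17 (adjusted p = 0.00315). RMI1, which joins BLM in the complex that dissolves crossed strands, had signals of 110.2, 87.4 and 77.3 with the shRNA, against 181, 158 and 228 uninduced, and 300, 218 and 243 with dnTcf4, against 378, 408 and 414 uninduced. It changed by -1.04 ± 0.16 (adjusted p = 8.98e-05) and -0.67 ± 0.16 (adjusted p = 0.00384), again without overlap of induced and uninduced values.

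The complex that first senses and trims a break did not pass the test in either line. MRE11, its nuclease, changed by -0.88 ± 0.33 (adjusted p = 0.0528) with the shRNA and -0.33 ± 0.33 (adjusted p = 0.488) with dnTcf4, and it was called with the shRNA once induced array 3 was left out (log2 change -1.08, adjusted p = 0.0361). RAD50, its ATPase, changed by -0.01 and 0.02 (95% intervals -0.48 to 0.46 and -0.45 to 0.49). NBN, which brings ATM to the break, changed by -0.21 and -0.20 (95% intervals -0.56 to 0.14 and -0.55 to 0.15). WRN, the helicase lost in Werner syndrome, averaged 51.8 ± 6.49 with the shRNA and 39.0 ± 1.6 uninduced (SD, n = 3 each), a change of 0.40 ± 0.19 (adjusted p = 0.122), and changed by -0.06 ± 0.19 (adjusted p = 0.856) with dnTcf4.

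In the Fanconi anaemia pathway 5 of 7 genes tested were called lower with the shRNA (median change -0.93) and 6 of 7 with dnTcf4 (median -0.70). FANCG, a scaffold of the core complex, gave 147, 162 and 167 with the shRNA, against 593, 576 and 547 uninduced, and 404, 346 and 386 with dnTcf4, against 624, 592 and 677 uninduced. It was 3.61-fold lower with the shRNA, a change of -1.85 ± 0.10 (adjusted p = 7.49e-10), and 1.67-fold lower with dnTcf4, a change of -0.74 ± 0.10 (adjusted p = 2.48e-05). BRIP1, a helicase that binds BRCA1 and is also known as FANCJ, had signals of 38.8, 28 and 32.4 with the shRNA, against 101, 85.4 and 92.7 uninduced, and 75.8, 78.4 and 53.5 with dnTcf4, against 147, 129 and 128 uninduced. The groups were apart in both lines, with changes of -1.50 ± 0.18 (adjusted p = 8.32e-06) and -0.98 ± 0.18 (adjusted p = 0.000497).

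FANCI, which is ubiquitinated together with FANCD2 when a crosslink is met, gave 96.6, 94.4 and 95.1 with the shRNA, against 202, 197 and 226 uninduced, and 168, 179.7 and 149 with dnTcf4, against 273, 260.3 and 273 uninduced, and changed by -1.13 ± 0.11 (adjusted p = 1.06e-06) and -0.70 ± 0.11 (adjusted p = 0.000141). FANCL, the ubiquitin ligase that marks FANCI and FANCD2, had signals of 108, 151 and 112 with the shRNA, against 214, 233 and 255 uninduced, and 179, 145 and 132 with dnTcf4, against 206, 201 and 223 uninduced. It changed by -0.93 ± 0.15 (adjusted p = 0.000123) and -0.48 ± 0.15 (adjusted p = 0.0191), and the call with dnTcf4 was lost without induced array 2 or 3 or uninduced array 3 (adjusted p 0.0561 to 0.0824). Among the other core complex genes FANCC changed by -0.73 ± 0.19 (adjusted p = 0.00784) and -0.73 ± 0.19 (adjusted p = 0.00703), and FANCE by -0.30 ± 0.12 (adjusted p = 0.0748), not called, and -0.50 ± 0.12 (adjusted p = 0.00422). FANCM, the motor that anchors the core complex to DNA, was near the filter, averaging 12.5 ± 5.16 with the shRNA and 20.1 ± 5.96 uninduced (SD, n = 3 each), and was not called in either line (adjusted p = 0.231 and 0.383).

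Of 5 end joining genes, 3 were called lower with the shRNA (median change -0.50) and 2 with dnTcf4 (median -0.24). POLQ, the polymerase of the error-prone alternative route, had signals of 14.7, 19.7 and 14.8 with the shRNA, against 27.5, 38.2 and 34.6 uninduced, and 42.2, 40.9 and 48.2 with dnTcf4, against 36.7, 44.1 and 56.2 uninduced. The shRNA groups were apart, with a change of -1.03 ± 0.26 (adjusted p = 0.00508), and the dnTcf4 groups overlapped, with a change of -0.04 ± 0.26 (adjusted p = 0.921). XRCC6 and XRCC5, both subunits of the Ku ring that slides onto broken ends, gave strong signals. XRCC6 had 2533, 2411 and 2382 with the shRNA, against 3619, 3503 and 3587 uninduced, and 2756, 3282 and 2868 with dnTcf4, against 3350.2, 3576 and 3552 uninduced. It changed by -0.55 ± 0.07 (adjusted p = 1.89e-05) and -0.24 ± 0.07 (adjusted p = 0.0164), and the smaller decrease lost its call without induced array 1 or 3 or uninduced array 2 or 3 (adjusted p 0.0556 to 0.0833).

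XRCC5 had signals of 2460.4, 2203 and 2416 with the shRNA, against 2523, 2653 and 2502 uninduced, and 2239, 2399.9 and 2187 with dnTcf4, against 2899, 3073 and 3019 uninduced. Both pairs of groups were apart, but only the change with dnTcf4 was called, -0.40 ± 0.07 (adjusted p = 0.000289), against -0.12 ± 0.07 (adjusted p = 0.216) with the shRNA. PRKDC, the kinase that Ku recruits, gave 916, 899 and 764 with the shRNA, against 1099, 1217 and 1324 uninduced, and 769, 791 and 603 with dnTcf4, against 865, 869 and 885 uninduced. It changed by -0.50 ± 0.11 (adjusted p = 0.00204) with the shRNA and by -0.29 ± 0.11 (adjusted p = 0.0527) with dnTcf4, and the change with dnTcf4 was called once induced array 1 or 2 was left out (adjusted p = 0.0467 and 0.0303). XRCC4, the partner of the ligase that seals the ends, was not called in either line, with changes of -0.18 and -0.17 (95% intervals -0.58 to 0.22 and -0.57 to 0.23).

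Mismatch repair was represented by MSH6 and MSH3. MSH6, which recognises single mispaired bases, had signals of 227, 237 and 232 with the shRNA, against 489, 526 and 495 uninduced, and 285, 333 and 277 with dnTcf4, against 640.3, 628 and 582 uninduced. It fell in both lines, with changes of -1.12 ± 0.10 (adjusted p = 2e-07) and -1.05 ± 0.10 (adjusted p = 5.12e-07), and the difference between the lines was -0.07 (95% interval -0.36 to 0.22). MSH3, which recognises larger loops, averaged 84.9 ± 21.0 with the shRNA and 89.5 ± 18.0 uninduced, and 123 ± 13.6 with dnTcf4 and 124 ± 26.5 uninduced (SD, n = 3 each). Its changes of -0.09 and 0.00 were not called (adjusted p = 0.791 and 0.994), and whether MSH6 and MSH3 differ in their changes was not tested.

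The 3 base excision repair genes were all called lower with dnTcf4 (median change -0.76), and 2 of 3 with the shRNA (median -0.57). UNG, the glycosylase that removes uracil, gave 643, 650.2 and 597 with the shRNA, against 985, 980.1 and 1034 uninduced, and 392, 409 and 352 with dnTcf4, against 919, 877 and 1046 uninduced. It was 1.59-fold lower with the shRNA, a change of -0.67 ± 0.09 (adjusted p = 3.09e-05), and 2.46-fold lower with dnTcf4, a change of -1.30 ± 0.09 (adjusted p = 2.62e-08). PARP1, the sensor of strand breaks, had signals of 704, 682 and 552 with the shRNA, against 964, 998 and 909.9 uninduced, and 622, 782 and 619 with dnTcf4, against 985, 932 and 975 uninduced, with changes of -0.57 ± 0.11 (adjusted p = 0.000583) and -0.52 ± 0.11 (adjusted p = 0.00123). LIG3, the ligase that closes nicks with XRCC1, gave 132, 106 and 142 with the shRNA, against 111, 132 and 117 uninduced, where the groups overlapped, and 82.0, 78.5 and 76.8 with dnTcf4, against 133, 138 and 129.7 uninduced, where they were apart. Its change was 0.07 ± 0.14 (adjusted p = 0.728) with the shRNA and -0.76 ± 0.14 (adjusted p = 0.000413) with dnTcf4. Probe sets of LIG3 disagreed, and the second brightest changed by -0.05 with the shRNA and -0.00016 with dnTcf4, while another changed by -0.65 with dnTcf4 (adjusted p = 0.0283 over all probe sets).

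Checkpoint genes were called lower in 4 of 8 cases with the shRNA (median change -0.37) and in 5 of 8 with dnTcf4 (median -0.45). The effector kinase CHEK2, which acts below ATM, had signals of 111, 105 and 128 with the shRNA, against 218, 194 and 203 uninduced, and 136, 141 and 128 with dnTcf4, against 261, 221 and 209 uninduced. Its changes were -0.84 ± 0.13 (adjusted p = 6.71e-05) and -0.77 ± 0.13 (adjusted p = 0.000152). CLSPN, the adaptor through which ATR activates CHEK1, was dim, with signals of 22.9, 16.3 and 19.6 with the shRNA, against 34.7, 32.5 and 37.8 uninduced, and 34.7, 41.3 and 29.8 with dnTcf4, against 58.1, 53 and 51.2 uninduced. It changed by -0.85 ± 0.24 (adjusted p = 0.0103) and -0.63 ± 0.24 (adjusted p = 0.048). Its second brightest probe set changed by -0.03 (adjusted p = 0.977) and -0.0098 (adjusted p = 0.991), so neither call was made with it, and the call with dnTcf4 held only without induced array 2, with an adjusted p of 0.0836 to 0.16 without any other dnTcf4 array. TOPBP1, the activator of ATR, gave 104, 104 and 101 with the shRNA, against 150.2, 181 and 225 uninduced, and 235, 193 and 198 with dnTcf4, against 244, 246 and 308 uninduced. The groups were apart in both lines, with changes of -0.83 ± 0.15 (adjusted p = 0.000354) and -0.35 ± 0.15 (adjusted p = 0.081), the second not called. MDC1, which binds marked chromatin around a break, had signals of 130.4, 148 and 141 with the shRNA, against 240.1, 211 and 189 uninduced, and 118, 125 and 83.2 with dnTcf4, against 150.4, 172 and 176 uninduced, with changes of -0.61 ± 0.15 (adjusted p = 0.00581) and -0.63 ± 0.15 (adjusted p = 0.00439).

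The apical kinases gave small or uncertain changes. ATR changed by -0.08 ± 0.17 (adjusted p = 0.753) with the shRNA and by -0.50 ± 0.17 (adjusted p = 0.0321) with dnTcf4, a call that held only without induced array 1 and was lost without any of the other 5 dnTcf4 arrays (adjusted p 0.0525 to 0.0996). ATM changed by -0.00 and 0.20, with wide 95% intervals (-0.60 to 0.60 and -0.41 to 0.80). CHEK1, the effector kinase below ATR, averaged 349 ± 26.4 with the shRNA and 386 ± 32.0 uninduced, and 224 ± 9.49 with dnTcf4 and 297 ± 20.0 uninduced (SD, n = 3 each). Its change was -0.14 ± 0.10 (adjusted p = 0.333) with the shRNA and -0.40 ± 0.10 (adjusted p = 0.00624) with dnTcf4. A dimmer probe set of CHEK1 went the other way with the shRNA, changing by 1.5 (adjusted p = 0.0104 over all probe sets), and by -1.27 with dnTcf4 (adjusted p = 0.0287). TP53BP1, which protects broken ends from resection, was not called in either line, with changes of 0.16 and -0.21 (adjusted p = 0.443 and 0.297).

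**Figure D3:**
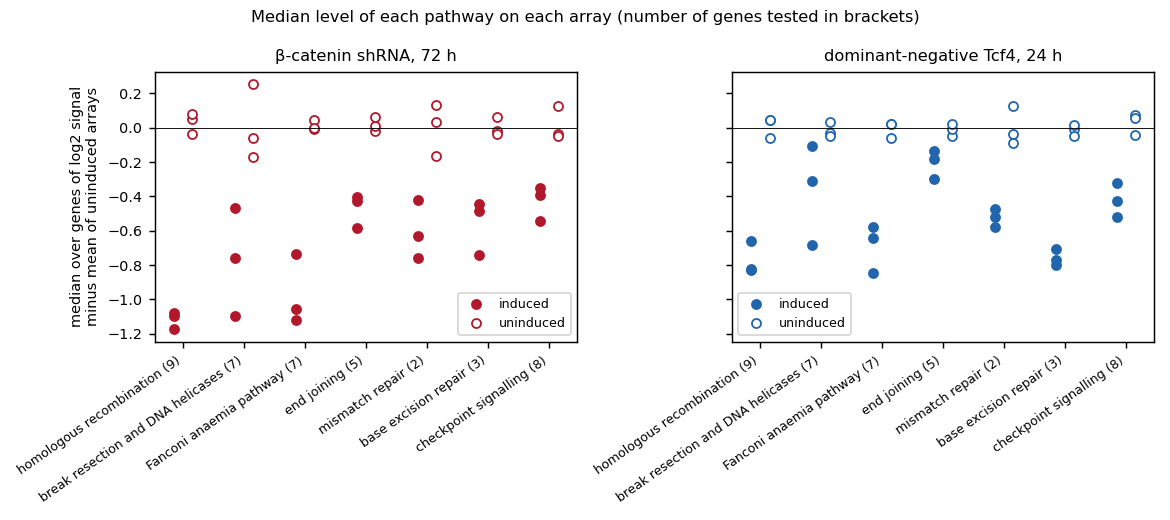
Median over the genes of each route of log2 signal minus the mean of the uninduced arrays of the same line (vertical axis), for each induced (filled) and uninduced (open) array. Induced arrays lie below uninduced arrays in every route and line, from -1.17 to -0.35 with the shRNA and from -0.85 to -0.11 with dnTcf4.

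Further probe sets of the same genes mostly had a change of the same sign. The following counts use calls from a separate fit over all probe sets but controls, dim ones included. The genes called there can differ from those called in the main fit. Of 11 further probe sets above the filter that belong to genes called there with the shRNA, all 11 changed in the same direction and 6 were called lower. Of 16 for genes called there with dnTcf4, 15 changed in the same direction and 11 were called lower. Direction here is the sign alone, however small the change, as in the second brightest probe set of LIG3 (-0.0002 with dnTcf4). No further probe set of a gene called in a line was called higher in that same line, while a dimmer CHEK1 probe set, of a gene called with dnTcf4, was called higher with the shRNA. With the mean of all probe sets of a gene, dim ones included, the call of FANCC was lost in both lines (-0.12 with the shRNA, adjusted p = 0.838, and -0.41 with dnTcf4, adjusted p = 0.404), as was that of XRCC6 (-0.036, adjusted p = 0.955, and -0.065, adjusted p = 0.917). Under the same mean POLQ changed by -0.40 with the shRNA (adjusted p = 0.463) and MSH6 by -0.46 with dnTcf4 (adjusted p = 0.33). The calls of BRCA1 (-0.59, adjusted p = 0.0565), PRKDC (-0.44, adjusted p = 0.38) and CLSPN (-0.54, adjusted p = 0.317) with the shRNA were lost too. With dnTcf4 so were those of XRCC5 (-0.28, adjusted p = 0.515), LIG3 (-0.34, adjusted p = 0.127), ATR (-0.71, adjusted p = 0.0836) and CLSPN (-0.41, adjusted p = 0.466). With the second brightest probe set the calls of PRKDC (-0.39, adjusted p = 0.1) and MDC1 (-0.42, adjusted p = 0.238) with the shRNA, and of BARD1 (-0.49, adjusted p = 0.109) and ATR (-0.63, adjusted p = 0.054) with dnTcf4, were also lost.

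The lines differed in how far some of these genes fell. In the test of the difference, the change with the shRNA minus that with dnTcf4, 8 of 41 genes were called, 6 lower and 2 higher, where 17.6% of all genes were called, 8.61% lower and 9.03% higher, so the share called was close to the background. RAD51AP1 (-1.27 ± 0.31 (adjusted p = 0.01)), FANCG (-1.11 ± 0.14 (adjusted p = 5.35e-05)), EXO1 (-1.09 ± 0.22 (adjusted p = 0.00248)), RAD54L (-0.72 ± 0.24 (adjusted p = 0.0442)), BARD1 (-0.54 ± 0.18 (adjusted p = 0.0499)) and XRCC6 (-0.31 ± 0.10 (adjusted p = 0.0467)) fell further with the shRNA. UNG (0.63 ± 0.13 (adjusted p = 0.003)) fell further with dnTcf4, and LIG3 (0.83 ± 0.20 (adjusted p = 0.00745)) was called lower there and not with the shRNA. The calls of RAD51AP1, FANCG, EXO1, LIG3 and UNG held when any of the 12 arrays was left out. That of RAD54L was lost without any of 9 arrays (adjusted p up to 0.113) and held without induced array 2 or uninduced array 3 of the shRNA line or uninduced array 1 of the dnTcf4 line. The call of BARD1 was lost without any of 10 arrays (adjusted p up to 0.138) and held without induced array 2 of the shRNA line or uninduced array 1 of the dnTcf4 line. The call of XRCC6 was also lost without any of 10 arrays (adjusted p up to 0.117) and held without induced array 1 or 3 of the dnTcf4 line. POLQ missed the threshold with a difference of -0.99 ± 0.36 (adjusted p = 0.0735) and was called without induced array 2 of the shRNA line (-1.12, adjusted p just under 0.05). FANCI without induced array 3 of the dnTcf4 line (adjusted p = 0.0466), FANCL without induced array 2 of the shRNA line (adjusted p = 0.0457), TOPBP1 without uninduced array 1 of the shRNA line (adjusted p = 0.0498) and XRCC5 without induced array 2 of either line (adjusted p down to 0.0306) likewise gained a call. FANCC (0.01, 95% interval -0.57 to 0.59), CHEK2 (-0.07, -0.45 to 0.31) and MDC1 (0.02, -0.44 to 0.49) showed no difference that passed the test.

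**Figure D4:**
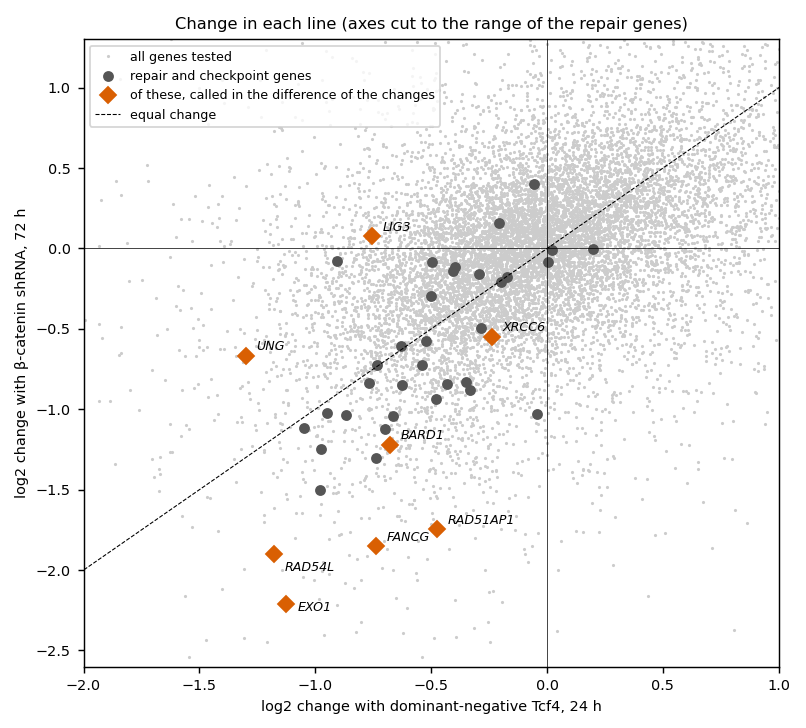
Log2 change with dnTcf4 (horizontal) against log2 change with the shRNA (vertical) for all genes tested (grey), the 41 repair and checkpoint genes (dark) and, of these, the 8 called in the difference (orange). The broken line marks equal change, and 29 of the 41 genes lie below it. The axes show the range of the repair genes only.

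The log2 change, of either sign, was more negative with the shRNA than with dnTcf4 for 29 of the 41 genes, against 46.2% of all genes tested. Over these genes the changes in the lines correlated at 0.62 (Pearson), against 0.46 over all genes tested, a description across genes that share arrays and are not independent replicates. The inductions lasted 72 h and 24 h, and construct and time cannot be told apart here.

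Without induction the lines also differed in these genes. The uninduced arrays are listed at 72 h for the shRNA line and at 24 h for the dnTcf4 line. Line and time in culture therefore cannot be told apart in this comparison. The uninduced dnTcf4 line was higher than the uninduced shRNA line for 19 of 41 genes and lower for 2, where 37.3% of all genes were called, 16.9% higher and 20.5% lower. All 3 values of the dnTcf4 line lay above those of the shRNA line for 19 genes and below them for 4, patterns shown by 22.9% and 27% of all genes. The median difference, dnTcf4 line minus shRNA line, was 0.37, against -0.03 over all genes. These uninduced arrays are also the controls of both inductions, so the difference between the lines and the changes on induction are not independent. NBN had the largest difference, with 395, 391 and 396 in the uninduced dnTcf4 line, against 117, 123 and 184 in the uninduced shRNA line, a log2 difference of 1.51 ± 0.16 (adjusted p = 2.23e-06). It was not called in either induction. RAD51AP1 differed by 1.18 ± 0.22 (adjusted p = 0.000506), XRCC2 by 1.16 ± 0.32 (adjusted p = 0.00884), RMI1 by 1.1 ± 0.16 (adjusted p = 5.23e-05), EXO1 by 1.04 ± 0.15 (adjusted p = 5.57e-05), RAD54B by 0.95 ± 0.22 (adjusted p = 0.00234), BLM by 0.92 ± 0.17 (adjusted p = 0.000523) and BRCA1 by 0.87 ± 0.26 (adjusted p = 0.0155). XRCC4 differed by 0.83 ± 0.19 (adjusted p = 0.00242), FANCC by 0.69 ± 0.19 (adjusted p = 0.00972) and BARD1 by 0.58 ± 0.13 (adjusted p = 0.00202).

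The genes lower in the uninduced dnTcf4 line were PRKDC, with 865, 869 and 885, against 1099, 1217 and 1324 in the uninduced shRNA line (-0.47 ± 0.11 (adjusted p = 0.00291)), and CHEK1 (-0.38 ± 0.10 (adjusted p = 0.00985)). RAD54L (-0.02, 95% interval -0.37 to 0.34), FANCG (0.14, -0.07 to 0.35), UNG (-0.08, -0.28 to 0.11) and PARP1 (0.01, -0.22 to 0.24) were not called between the uninduced lines. Of the 21 calls, 12 held when any of the 6 arrays was left out. Those of ATR, BRCA1, BRIP1, CLSPN, FANCI, MSH6, TOPBP1, XRCC5 and CHEK1 were lost without at least 1 array (highest adjusted p 0.137, for CLSPN). The call of CLSPN was lost whichever of the 6 arrays was left out (adjusted p 0.0558 to 0.137). That of BRIP1 was lost without any of 5 arrays, those of FANCI and MSH6 without any of 4, and that of CHEK1 without 1. Probe sets of FANCI disagreed on this difference, the second brightest giving -0.86 (adjusted p = 0.000209). With the second brightest probe set the calls of PRKDC (-0.31, adjusted p = 0.174) and CHEK1 (-0.14, adjusted p = 0.439) were lost. So were those of BRCA1 (0.54, adjusted p = 0.073), BARD1 (0.24, adjusted p = 0.455), RAD51C (0.22, adjusted p = 0.209) and MSH6 (0.14, adjusted p = 0.431). XRCC4 lost its call without _x_at or _s_at probe sets (0.76, adjusted p = 0.271). With the mean of all probe sets, calls lost included those of FANCC (0.19, adjusted p = 0.717) and ATR (0.37, adjusted p = 0.369). PRKDC (-0.315, adjusted p = 0.54) and MSH6 (0.035, adjusted p = 0.954) lost theirs under that mean too. Centring each array on its median shifts the median difference of all genes between the uninduced lines from -0.03 to 0.09, and with it 20 genes were called higher and 1 lower.

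**Figure D5:**
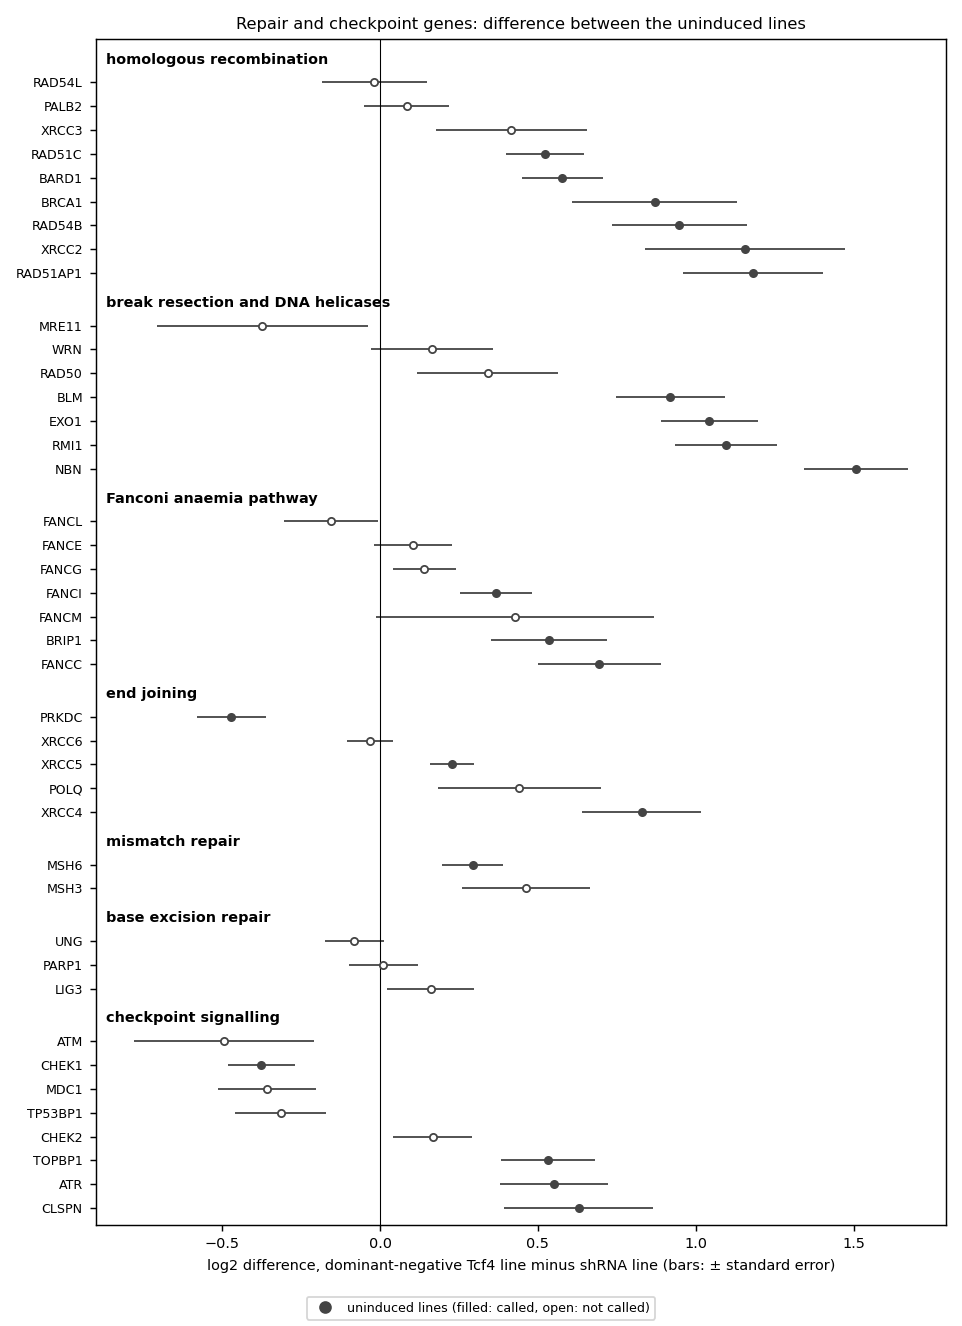
Log2 difference between the uninduced lines, dnTcf4 line minus shRNA line, for each of the 41 genes by route. Points are differences, bars are standard errors, and filled points were called, 19 of them right of 0 and 2 (PRKDC and CHEK1) left of it.

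Other genes of the same routes, from a list of 95 of which 87 were tested, were called lower in 32 cases and higher in 3 with the shRNA, and lower in 29 and higher in 3 with dnTcf4. Over all genes tested 17.4% were called lower and 16.6% higher with the shRNA, and 20% lower and 16% higher with dnTcf4, and counts of a few genes per route are to be read against these shares. In homologous recombination 7 of 10 were called lower with the shRNA and 4 with dnTcf4, none higher. RPA2, a subunit of the protein that coats single strands, changed by -1.02 (adjusted p = 3.28e-07) and -0.95 (adjusted p = 8.4e-07), MND1, a cofactor of strand exchange, by -0.96 (adjusted p = 8.09e-05) and -1.12 (adjusted p = 1.82e-05), and PSMC3IP, its partner, by -1.17 (adjusted p = 0.0117) with the shRNA and -0.01, not called, with dnTcf4. RAD51D, which binds XRCC2, was lower in both lines and changed by -0.79 with dnTcf4 (adjusted p = 0.00391) and by -0.81 with the shRNA (adjusted p = 0.00329). Among resection factors and helicases 4 of 10 were called lower in each line, none higher. RMI2, which binds RMI1, changed by -1.85 (adjusted p = 2.43e-07) and -0.74 (adjusted p = 0.00199), DNA2, a resection nuclease, by -1.14 (adjusted p = 0.000632) with the shRNA and -0.30, not called, with dnTcf4, and RECQL4, a helicase, by -0.70 (adjusted p = 0.00287) and -0.57 (adjusted p = 0.0111), while SLX4, a nuclease scaffold, changed by -0.87 (adjusted p = 0.0438) with dnTcf4 and -0.37, not called, with the shRNA.

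In the Fanconi anaemia pathway 2 of 8 further genes were called lower and 1 higher with the shRNA, and 4 lower with dnTcf4. UBE2T, the ubiquitin-conjugating enzyme that works with FANCL, changed by -1.37 (adjusted p = 4.37e-08) and -0.50 (adjusted p = 0.00119), and USP1, which removes that ubiquitin, by -1.21 (adjusted p = 3.97e-05) and -0.68 (adjusted p = 0.00532). FANCF, an adaptor of the core complex, went opposite ways, 0.51 (adjusted p = 0.0153) with the shRNA and -0.71 (adjusted p = 0.00145) with dnTcf4, a difference of 1.22 (adjusted p = 0.000902). FAAP100, also of the core complex, changed by -0.73 (adjusted p = 0.00651) with dnTcf4 and -0.29, not called, with the shRNA. In end joining LIG4, the ligase that works with XRCC4, was called higher in both lines, with changes of 1.0 (adjusted p = 0.000325) and 1.09 (adjusted p = 0.00016), and PAXX, which binds Ku, was called lower in both, with changes of -0.82 (adjusted p = 0.000216) and -0.58 (adjusted p = 0.00397), with the other 4 of 6 not called.

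Further base excision repair genes were called lower in 5 of 14 cases and higher in 1 with the shRNA, and lower in 6 with dnTcf4. NEIL3, a glycosylase, changed by -1.99 (adjusted p = 0.00214) with the shRNA and -0.71, not called, with dnTcf4, its relative NEIL2 by -1.04 (adjusted p = 0.000267) and -0.81 (adjusted p = 0.00208), and TDG, which removes thymine from mismatches with guanine, by 0.75 (adjusted p = 0.000167) with the shRNA and -0.06, not called, with dnTcf4. NTHL1, a glycosylase for oxidised pyrimidines, changed by -0.33 (adjusted p = 0.0417) with the shRNA and -0.97 (adjusted p = 8.47e-06) with dnTcf4, and PARP2, a relative of PARP1, by -0.64 (adjusted p = 4.06e-05) and -0.63 (adjusted p = 4.9e-05). Of the further mismatch repair genes PMS1 was called lower with dnTcf4 with a change of -0.81 (adjusted p = 0.00111), and not with the shRNA (-0.16), and MLH3 was called in neither line. Further checkpoint genes were called lower in 10 of 14 cases with the shRNA and 7 with dnTcf4, none higher. TIMELESS, which travels with the replication fork, changed by -2.06 (adjusted p = 6.76e-11) and -1.01 (adjusted p = 3.82e-07), the phosphatase CDC25A, which CHEK1 restrains, by -1.76 (adjusted p = 9.98e-08) and -1.42 (adjusted p = 1.22e-06), and H2AX, the histone that marks breaks, by -1.45 (adjusted p = 1.1e-08) and -0.81 (adjusted p = 8.73e-06).

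Cell cycle genes moved with the repair genes. All 15 genes of a list of proliferation and replication markers were called lower with the shRNA (median change -1.35), and 12 of 15 with dnTcf4 (median -0.49). All 15 changes were more negative with the shRNA. In the test of the difference 10 of 15 were called lower, where 8.61% of all genes were. BIRC5, an inhibitor of apoptosis made in mitosis, changed by -1.82 (adjusted p = 5.03e-10) and -0.56 (adjusted p = 0.000213), CCNA2, a cyclin of S phase and G2, by -1.69 (adjusted p = 1.29e-09) and -0.61 (adjusted p = 0.000102), and MCM2, a subunit of the replicative helicase, by -1.62 (adjusted p = 1.03e-08) and -1.18 (adjusted p = 4.49e-07). Between the uninduced lines 9 of these 15 genes were higher and 1 lower in the dnTcf4 line. The part of the cell cycle in the changes of the repair genes was not tested. Markers of other cell types were low. All 8 fibroblast markers had a probe set and 5 passed the filter, with a summed signal of 140 to 188 in the induced and 125 to 157 in the uninduced shRNA line, and of 189 to 220.3 in the induced and 129 to 153 in the uninduced dnTcf4 line, where LUM was called higher in both lines (1.94 and 2.19), and COL1A2, COL3A1 and PDGFRB were below the filter. Of 7 leukocyte markers 6 had a probe set and 1 passed the filter, and of 4 endothelial markers 1 passed, with none of these called. The leukocyte markers summed to 68.7 to 94.4 in the induced and 76.5 to 77.9 in the uninduced shRNA line, and to 31.1 to 59.5 in the induced and 41.8 to 69.9 in the uninduced dnTcf4 line. The endothelial markers summed to 34.3 to 64.8 in the induced and 30.6 to 57.3 in the uninduced shRNA line, and to 25.9 to 37.8 in the induced and 23.1 to 40.8 in the uninduced dnTcf4 line. Of the 11 epithelial markers 7 were called higher and 1 lower with the shRNA and 5 higher with dnTcf4, with KRT19 changing by 2.61 and 1.58, and their summed signal was 35530 to 40200 in the induced and 18750 to 21260 in the uninduced shRNA line, and 36540 to 40920 in the induced and 25420 to 28230 in the uninduced dnTcf4 line. Their part in the changes of the repair genes was not tested.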

How the data were processed

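The deposited values are an intensity (signal) per probe set and array, made by the authors with MAS5 and GCOS per the submitters' processing notes (versions and genome build not given in the sources used here). Signals below 1 were raised to 1 before log2 transformation. Each gene was represented by its brightest probe set (mean log2 signal over 12 arrays, probe sets of 1 symbol), and genes with a mean of at least 3.35 (a signal of 10.2) were tested. The linear model held the 4 groups (limma 3.58.1, R 4.3.3, empirical Bayes with a variance trend) and used Benjamini-Hochberg adjustment over 12386 genes, called at an adjusted p under 0.05. In simulated arrays, 76% of 2-fold and 86% of 4-fold changes were recovered for the shRNA, and 78% and 88% for dnTcf4. Of the calls, 5 of 167 and 7 of 173 were false. The same changes were put into both lines, so the simulated arrays held no difference between the lines, and none was called. Recovery of a difference was therefore not tested. The comparison of the uninduced lines was not simulated. Values on every array are given for up to 4 called genes per route with the largest change, and for every gene called in the difference; for genes of other lists up to 3 called per route and induction are named. NBN between the lines was named after its values were seen. The genes and lists were chosen with earlier results of these data known. A total of 26 alternatives were run, 12 of them leaving out 1 array.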

Additional observations from a re-analysis of the deposited data

Results flagged for a closer look

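In 8 genes the change in the shRNA line and the change in the dnTcf4 line differed by the test of the difference itself (limma, adjusted over 12386 genes), which is 8 of 41 genes tested, close to the 17.6% of all genes called. RAD51AP1 changed by -1.74 with the shRNA and -0.47 with dnTcf4, a difference of -1.27 (adjusted p = 0.01). FANCG differed by -1.11 (adjusted p = 5.35e-05), EXO1 by -1.09 (adjusted p = 0.00248), RAD54L by -0.72 (adjusted p = 0.0442), BARD1 by -0.54 (adjusted p = 0.0499) and XRCC6 by -0.31 (adjusted p = 0.0467), each falling further with the shRNA. UNG differed by 0.63 (adjusted p = 0.003) falling further with dnTcf4. LIG3 differed by 0.83 (adjusted p = 0.00745), with a decrease called with dnTcf4 and not with the shRNA, but -0.054 (adjusted p = 0.905) with its second brightest probe set. Leaving out any 1 of 9 arrays lost the call of RAD54L, and any 1 of 10 that of BARD1 and of XRCC6. The lines also differed in construct and in time of induction, and these cannot be told apart.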

How the results depend on the processing

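WRN was called higher with the shRNA without the variance trend (0.40, adjusted p = 0.019). With a minimum change of 1.5-fold the genes called were 10 with the shRNA, 4 with dnTcf4, 1 in the difference and 2 between the uninduced lines, as fewer genes can pass by construction. Without probe sets ending in _x_at or _s_at 28 genes were tested and 17 were called with dnTcf4 and 4 in the difference. The 8 calls in the difference were 5 with each array centred on its median, 5 without a filter, 5 with every probe set by itself and 5 with the replicate number as a block. Leaving out 1 array gave 24 to 25 calls with the shRNA, 21 to 26 with dnTcf4, 5 to 10 in the difference and 15 to 19 between the uninduced lines. The median change with the shRNA, -0.73, was -0.78 with centred arrays, -0.78 without a filter, -0.84 without _x_at or _s_at probe sets, -0.57 with the second brightest probe set, -0.54 with the mean of all probe sets, and -0.82 to -0.68 with 1 array left out. With dnTcf4, -0.52, it was -0.65 to -0.47 with 1 array left out.

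Among results called in the main fit or in the alternative, the sign turned in 6 cases. Small changes that were not called also turned sign, such as that of ATM with the shRNA (-0.29 to 0.24 with 1 array left out). The 6 cases are as follows. The difference in XRCC6 was 0.029 with the mean of all probe sets, and that in LIG3 was -0.054 without _x_at or _s_at probe sets and -0.054 with the second brightest probe set. Between the uninduced lines FANCI gave -0.86 with the second brightest probe set and -0.17 with the mean, and XRCC5 gave -0.25 with the mean. The causes were not tested. Of the calls, 10 of 25 with the shRNA, 3 of 26 with dnTcf4, 1 of 8 in the difference and 2 of 21 between the uninduced lines were made under every alternative that tested the gene, the minimum change included. Without the minimum change these numbers were 18, 16, 4 and 7. A gene that an alternative did not test was not counted as lost there. UNG, for example, has only a probe set ending in _s_at and was not tested without such probe sets. Arrays of the same number in a line were not treated as paired, as the labels do not state a pairing. Their deviations correlated at -0.03 to 0.06, and not every array correlated best with its own number. With 3 arrays per group this cannot exclude a pairing. The replicate number as a block gave 26 calls with the shRNA, 25 with dnTcf4 and 5 in the difference. Signals carry no detection calls, so whether dim genes such as FANCM were detected is not known.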

Other observations

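In other repair routes small numbers of genes were tested, and 34% of all genes were called with the shRNA (17.4% lower) and 36% with dnTcf4 (20% lower, 16% higher). Nucleotide excision repair, which cuts out bulky lesions, had 13 genes tested, of which 2 were called lower and none higher with the shRNA, and 2 higher and none lower with dnTcf4. DDB2, which recognises ultraviolet lesions in chromatin, changed by -1.63 (adjusted p = 1.14e-06) with the shRNA and by 0.23 (adjusted p = 0.32), not called, with dnTcf4, a difference of -1.85 (adjusted p = 5.1e-05). XPC, the damage sensor of the whole genome, changed by -0.65 (adjusted p = 0.00463) with the shRNA. With dnTcf4 ERCC1, a subunit of the incision nuclease, changed by 1.09 (adjusted p = 3.69e-05), and ERCC5, the other incision nuclease, by 0.45 (adjusted p = 0.0473). In translesion synthesis 1 of 7 genes was called lower in each line, MAD2L2, the accessory subunit of a bypass polymerase, with changes of -0.71 (adjusted p = 0.000387) and -0.58 (adjusted p = 0.0019). Of 3 direct reversal enzymes ALKBH2 was called lower with dnTcf4, with a change of -0.65 (adjusted p = 0.000103), and none with the shRNA.

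Targets of p53, the factor that damage signalling activates, showed no common direction, with 2 of 10 called lower and 2 higher with the shRNA, and 2 lower and 3 higher with dnTcf4. CDKN1A, the inhibitor of cyclin-dependent kinases, changed by -0.36 (adjusted p = 0.0296) with the shRNA and by 2.64 (adjusted p = 2.52e-10) with dnTcf4, a difference of -3.01 (adjusted p = 8.55e-09). TP53I3, an oxidoreductase, changed by 1.01 (adjusted p = 5.53e-06) and 1.59 (adjusted p = 4.67e-08), and GADD45A, a stress response gene, by 1.28 (adjusted p = 1.41e-06) with dnTcf4 and 0.11, not called, with the shRNA.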
